A study of Homo sapiens with 6 samples.

Results

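Epithelial cells of the colon defend their surface with secreted antimicrobial proteins, with inhibitors of the proteases that white blood cells release, with antibody carried across the cell layer, and with enzymes that make reactive oxygen or nitric oxide. The genes described here are 10 such genes, PI3, SLPI, LCN2, S100A8, S100A9, DEFB1, DMBT1, PIGR, NOS2 and DUOX2, out of 19775 genes with a probe set of a single gene symbol. They are measured by 13 probe sets, since PI3, S100A8 and PIGR have 2 probe sets each and the other 7 genes have 1. The genes were chosen by their function and with the signals and changes of this same comparison on the 6 arrays known, so their differences between treated and control cells are given as a description, with no test.

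The cells were HT-29, an established human colon adenocarcinoma line. The treated group was kept with 10 µM 5-Aza (5-aza-2′-deoxycytidine), a cytidine analog that is built into DNA during replication and traps DNA methyltransferases there, for 72 hours. The control group received water with acetate, in which 5-Aza had been dissolved. The methods name serum-free medium for the 5-Aza treatment and do not state the medium of the control cultures. Each group had 3 HGU133 Plus2.0 microarrays. Whether each array stands for a culture of its own is not given, and p-values printed for other genes describe array-to-array spread, which may be technical. The sample labels describe 3 µg of total RNA per array. A single cell line at a single dose and time stands here for colon epithelium, with no bacteria or white blood cells named in the culture.

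PI3 (elafin) and SLPI are small secreted proteins of the whey acidic protein family that inhibit neutrophil elastase, and both also act on bacteria. LCN2 (lipocalin 2) binds bacterial siderophores and so withholds iron, and S100A8 and S100A9 pair to form calprotectin, which withholds zinc and manganese. DEFB1 is a beta-defensin that many epithelia make constantly. DMBT1 is a scavenger receptor protein of mucus that binds and clumps bacteria. PIGR carries IgA from the tissue side of the epithelium to the lumen. NOS2 is the inducible nitric oxide synthase, and DUOX2 is a membrane oxidase that releases hydrogen peroxide and needs the maturation factor DUOXA2. Several of these genes are known to be induced through the transcription factor NF-κB.

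The sequence just before the transcription start is shown for LCN2, PIGR and DUOX2, which had higher signals on all treated arrays. LCN2 is shown for its motif match, and PIGR and DUOX2 for their unlike numbers of CpG dinucleotides, the sites at which DNA is methylated. Each run is 250 bases, 5′ to 3′ on the strand of the gene, from RefSeq on GRCh38.p14. The LCN2 run is chr9:128149203-128149452 on the plus strand. Its capitals mark a match to the NF-κB consensus that is read on the other strand. The PIGR run is chr1:206946467-206946716 and the DUOX2 run is chr15:45114173-45114422, both on the minus strand, with CpG dinucleotides in capitals.
LCN2: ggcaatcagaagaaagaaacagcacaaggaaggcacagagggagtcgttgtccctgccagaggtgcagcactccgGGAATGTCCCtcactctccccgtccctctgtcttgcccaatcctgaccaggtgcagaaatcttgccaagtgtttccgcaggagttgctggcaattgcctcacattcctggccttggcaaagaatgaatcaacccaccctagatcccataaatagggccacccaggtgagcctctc
PIGR: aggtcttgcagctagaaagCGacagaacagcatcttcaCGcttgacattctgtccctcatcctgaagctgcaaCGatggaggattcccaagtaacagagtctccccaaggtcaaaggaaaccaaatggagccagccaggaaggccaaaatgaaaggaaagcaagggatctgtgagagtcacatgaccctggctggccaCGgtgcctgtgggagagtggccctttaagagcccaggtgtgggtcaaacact
DUOX2: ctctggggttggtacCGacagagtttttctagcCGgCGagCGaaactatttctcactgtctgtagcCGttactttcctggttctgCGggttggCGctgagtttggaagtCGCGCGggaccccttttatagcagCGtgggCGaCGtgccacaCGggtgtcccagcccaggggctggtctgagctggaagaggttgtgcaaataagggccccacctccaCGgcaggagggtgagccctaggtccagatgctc

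The LCN2 and PIGR runs hold 4 CpG dinucleotides each, and the DUOX2 run holds 15. With the first 50 bases of the transcript added, as in the RefSeq windows of 300 bases, the counts were 6 CpG dinucleotides in the LCN2 window, 3 in DMBT1, 5 in S100A9, 5 in PIGR and 18 in DUOX2. Each of the 3 windows of S100A8 holds 2. The median over 35116 windows is 14, with quartiles of 4 and 28. The S100A8 windows have more CpG dinucleotides than 11.0% of all windows, DMBT1 more than 18.2%, S100A9 and PIGR each more than 29.6%, LCN2 more than 33.7% and DUOX2 more than 55.5%. Of the 6 genes with a window, DUOX2 is therefore above the median window and the other 5 are below it. The remaining 4 genes are PI3, SLPI, DEFB1 and NOS2.

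Both strands of each window were searched for the NF-κB consensus (GGGRNNYYCC), the AP-1 motif (TGANTCA) and the core promoter box spelled TATAAA. R stands for A or G, Y for C or T and N for any base. A match is a description of the letters only. The NF-κB consensus was found in LCN2 on the other strand, from base -175 to base -166, where the gene strand reads GGAATGTCCC. In DMBT1 it was found on the gene strand, from base 19 to base 28 counted after the first base of the transcript. It occurs in 11.27% of all windows. TGANTCA was found in LCN2, from base -52 to base -46, and occurs in 7.71% of windows. TATAAA was found on the gene strand from base -29 to base -24 in S100A9, in DMBT1 and in 1 of the S100A8 windows. The match from base -126 to base -121 in another S100A8 window is the same bases, since these windows overlap. On the other strand TATAAA was found in DUOX2 from base -127 to base -122, and in DMBT1 from base -99 to base -94 and from base -89 to base -84. The bases of the DUOX2 match are those of TATAAA on the gene strand of DUOXA2, from base -32 to base -27. TATAAA occurs in 11.53% of windows. The match in LCN2 is the only NF-κB match upstream of a start among these 6 genes.

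Some of the genes lie close together. PI3 (chr20:45174902-45176544) and SLPI (chr20:45252239-45254564) are 75694 bases apart on chromosome 20. S100A9 (chr1:153357854-153361023) and S100A8 (chr1:153390032-153422583) lie 29008 bases apart in the RefSeq annotation. DUOX2 (chr15:45092650-45114172) and DUOXA2 start 153 bases apart and run in opposite directions, so that their windows share 253 bases.

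Every array had a mean signal of 500 after the lowest and highest 2% were left out. The median signal was 83.3 to 86.1 on treated and 71.8 to 76.9 on control arrays. As a measure of RNA quality, ACTB 3′ signal exceeded its 5′ signal by a log2 difference of 0.64 to 0.80 on treated and 0.46 to 0.60 on control arrays. The hybridization controls of control replicate 3 averaged 5826, against 9872 to 12355 on the other 5 arrays. A background level was taken for each array as the highest signal of the TrpnX control probe sets, a bacterial transcript, and lay between 22.6 and 42. The part of these array differences in the results was not tested. Changes are given on the log2(signal + 1) scale, treated minus control, with the standard error (SE) of a limma fit over all 54613 probe sets, and signals of different probe sets are not compared with each other.

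PI3 and SLPI, the antiproteases, gave different pictures. PI3 was about 9 times higher in treated than in control cells by both of its probe sets, while the signals of SLPI overlapped. For PI3, probe set 41469_at read 1221.6, 1301.7 and 1548.6 on the treated arrays and 141.4, 127.3 and 206.9 on the control arrays, means of 1357 ± 170 and 159 ± 42.5 (SD, n = 3 each). The change was 3.11 (SE 0.24). The other PI3 probe set, 203691_at, read 925.1, 985.7 and 881.5 against 139.9, 61.8 and 141.8, and its change was also 3.11 (SE 0.36). On both probe sets the lowest treated array was above the highest control array, by 5.90-fold and 6.22-fold. RNA was taken from whole cultures, so more RNA per cell and more cells that express a gene cannot be told apart here or in any result that follows. SLPI read 135.8, 125 and 168.5 on treated arrays and 118.5, 128.7 and 128.5 on control arrays, a change of 0.18 (SE 0.17), and of -0.0061 when each array was centred on its median. Treated replicate 2 lay below control replicates 2 and 3, so no separation was seen for the neighbour of PI3.

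Between PI3 and SLPI lie SEMG1 and SEMG2, which encode the semenogelins of seminal fluid, and 2 RNA genes without protein product, LINC02597 and LOC124904913. These were looked up after the values of PI3 had been seen. SEMG1 read 29.7, 38.5 and 40 on treated and 2.9, 3.5 and 14.3 on control arrays, all below 42, and was above the level of its own array on 2 treated arrays and 0 control arrays (limma adjusted p = 0.472). SEMG2 read 12.3, 3.5 and 22.8 against 17, 2.2 and 23.8, under the background of every array.

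LCN2, the siderophore binding protein, was bright on every array, and its control arrays differed among themselves. It read 5265.4, 6311.2 and 7325.8 on treated arrays and 2059.4, 5194.8 and 2330.7 on control arrays, means of 6301 ± 1030 and 3195 ± 1737. The change was 1.10 (SE 0.40). The groups do not overlap, but the lowest treated array was only 1.01 times the highest control array. Control replicate 2 was the high one, and the change was 1.51 without it and 0.84 without control replicate 1. When each array was centred on its median the LCN2 groups overlapped, with a change of 0.91.

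The calprotectin genes were dim. For S100A8, probe set 202917_s_at read 41.4, 40.7 and 38.6 on treated arrays and 3.3, 6 and 6.6 on control arrays. The treated signals were above the background of their own arrays on 3 of 3 arrays and the control signals on 0 of 3, so the control level has only an upper bound. Against that bound S100A8 was, on average over the arrays, at least 1.24-fold higher in treated cells, where each control array was set to its own background level. The level of control replicate 3 was 42, above every treated signal of this probe set, so against that array alone the bound gives no increase. The fitted change of 2.75 (SE 0.26) rests on values under background and was 1.40 when 16 was added to each signal in place of 1. The second S100A8 probe set, 214370_at, read 2.3, 3.5 and 4.7 against 2.5, 6.6 and 1.6, all under background, and did not separate the groups. Its partner S100A9 read 28.7, 12.8 and 5.2 on treated and 8.2, 4.3 and 11.1 on control arrays. No array of S100A9 was above background, and the groups overlap.

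DEFB1 and DMBT1 act directly on bacteria. DEFB1 read 22.9, 21.8 and 8.5 on treated and 21.4, 5.8 and 13.2 on control arrays, under background throughout and overlapping. DMBT1 read 153.9, 79.8 and 154.3 on treated and 27.8, 34.1 and 61.8 on control arrays, means of 129 ± 42.9 and 41.2 ± 18.1. The change was 1.65 (SE 0.42). Every treated array of DMBT1 was above every control array, with treated replicate 2 the lowest of its group and 1.29 times control replicate 3.

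PIGR, the IgA carrier, is read by 2 probe sets that disagree on the separation of the groups. Probe set 226147_s_at read 363.4, 434.8 and 362 on treated arrays and 64.6, 40 and 150.5 on control arrays, means of 387 ± 41.6 and 85.0 ± 58.0. Its change was 2.38 (SE 0.50), and all treated arrays were above all control arrays. Probe set 204213_at read 166.1, 83 and 152.1 against 5.6, 82.5 and 156, which overlap. Its change of 1.54 (SE 1.24) rested on control replicate 1, without which it was 0.17. Control replicate 3 was the highest control array on both PIGR probe sets.

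Of the oxidant enzymes NOS2 and DUOX2, only DUOX2 separated the groups. NOS2 read 47.1, 6 and 72.1 on treated and 104.3, 93.2 and 29.6 on control arrays, means of 41.7 ± 33.4 and 75.7 ± 40.3. The change was -1.21 (SE 1.03), the only negative one among the 10 genes, and the groups overlap. NOS2 signals were above the background of their own arrays on 2 of 3 arrays in each group. The NOS2 change was -0.18 without treated replicate 2 and -1.87 without treated replicate 3. Without control replicate 3 all treated arrays were below all control arrays. DUOX2 read 88.9, 105.1 and 124.5 on treated and 8.9, 58 and 22.2 on control arrays, means of 106 ± 17.8 and 29.7 ± 25.4. The change was 2.15 (SE 0.67). It was 2.81 without control replicate 2, 1.52 without control replicate 1 and 1.55 with 16 added to each signal. Treated DUOX2 signals were above background on 3 of 3 arrays and control signals on 1 of 3, and the groups do not overlap.

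**Figure D1:**
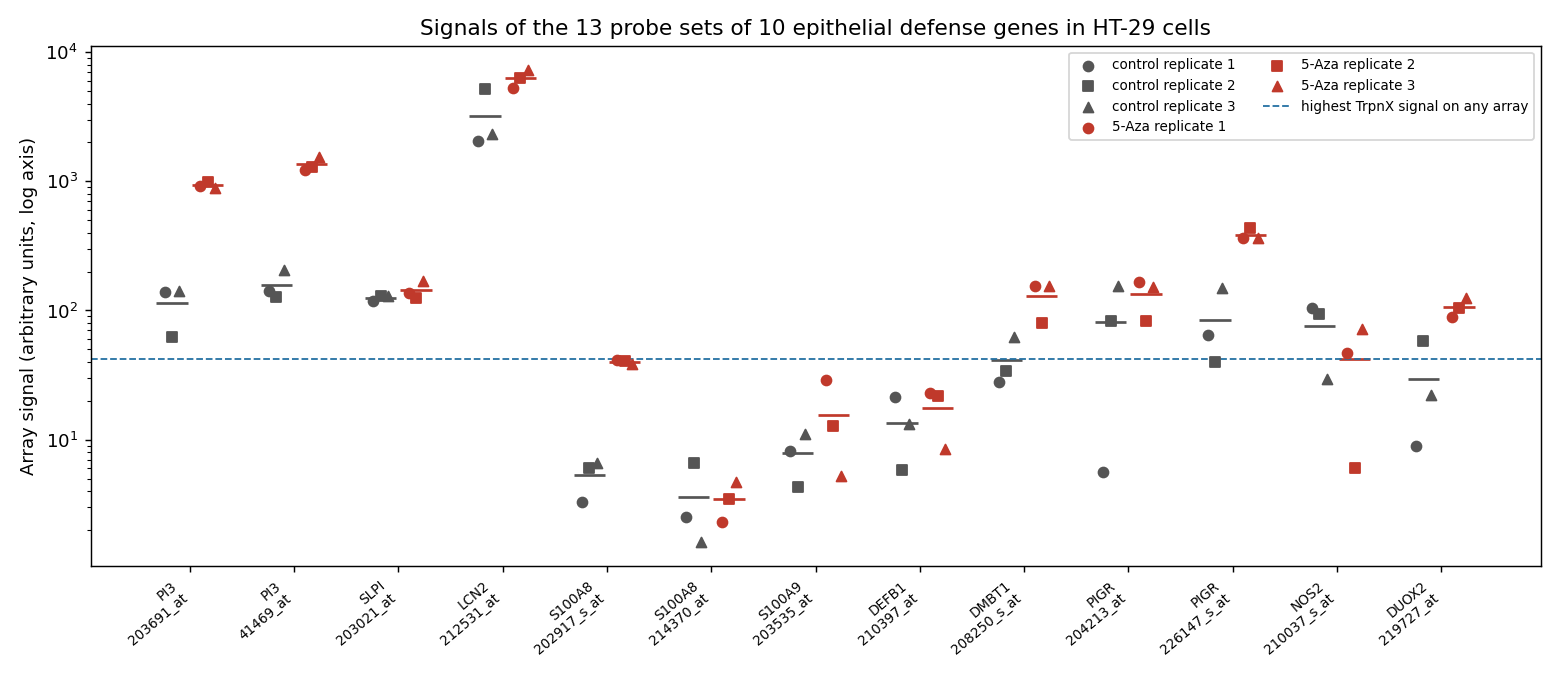
Signal of each of the 13 probe sets on the 3 arrays of 5-Aza-treated and the 3 arrays of control HT-29 cells, on a log axis. Points are arrays, short bars are group means, and the dashed line marks a signal of 42, the highest background level of any array. The treated arrays of PI3 lie between 881.5 and 1548.6 and its control arrays between 61.8 and 206.9. S100A9 and DEFB1 lie below the line on every array.

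Of the 10 genes, by 1 probe set each, 6 were higher on every treated array than on every control array (PI3, LCN2, S100A8, DMBT1, PIGR and DUOX2), 0 were lower on every treated array, and 4 overlapped. After median centring 5 were above, LCN2 no longer among them. Among all 19775 genes, 9.92% were above on every array and 6.94% below. By probe set, 7 of 13 were above and 6 overlapped. Over the whole array, limma called 0 of 54613 probe sets at an adjusted p under 0.05 (0%), the smallest adjusted p being 0.0903. Since the genes were chosen with this contrast known, nothing is read from these counts.

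The median change over the 10 genes was 1.37, or 0.90 with S100A8 set to its bound, beside 0.038 over all genes. The mean signal of S100A8, S100A9 and DEFB1 was under 42 in both groups, which leaves 7 genes with a signal over that level in at least 1 group. Among the 6 genes that separated, the highest control array was control replicate 3 for PI3, S100A8, DMBT1 and PIGR and control replicate 2 for LCN2 and DUOX2. Just inside the separation was LCN2, with a ratio of 1.01 between its lowest treated and highest control array, and just outside it was SLPI, with 0.97.

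**Figure D2:**
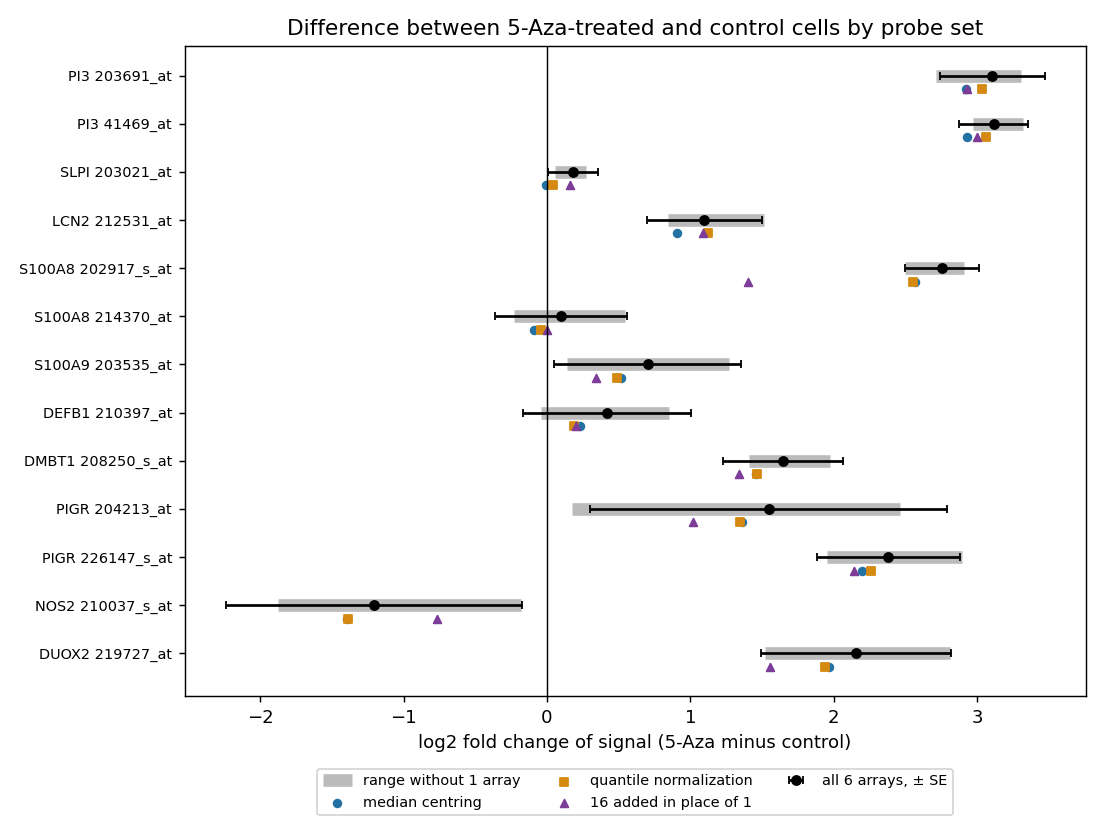
Change of each probe set between 5-Aza-treated and control cells on the log2 scale. Black points with bars are the value from all 6 arrays ± SE, grey bands span the values with 1 array left out, and coloured points are values after median centring, after quantile normalization and with 16 added in place of 1. Both PI3 probe sets stay above 2.7 in every setting, S100A8 202917_s_at falls to 1.40 with 16 added, and PIGR 204213_at spans 0.17 to 2.46.

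Other genes of epithelial defense were set beside these 10 in 7 lists, of which 163 of 178 genes had a probe set of a single symbol. The lists were written from general knowledge, but with earlier results of these data known. Their counts, here and list by list below, are therefore a description and no independent support. No gene of these lists passed an adjusted p under 0.05, the smallest adjusted p being 0.445, so each of them is named by its values. The number with a higher signal at an unadjusted p under 0.05 was 16 (9.82%) and with a lower signal 6 (3.68%), beside 5.33% and 1.89% of all genes. On arrays centred on their medians, which moved the median of all probe sets from 0.062 to -0.12, the counts were 9 higher and 10 lower. Beside these, 2.98% of all genes were higher and 6.72% lower after the same centring. Without treated replicate 1 there were 8 higher, with no share of all genes given for that setting. The 163 genes had a median change of 0.12.

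The 31 other secreted antimicrobial proteins measured had a median change of 0.30, and an unadjusted p under 0.05 was reached by 3 upward and 2 downward. LYZ (lysozyme) was among the brightest signals, with 31004.8, 28101.4 and 31427.7 on treated and 26665.7, 29918.5 and 19665.5 on control arrays, which overlap. ITLN1 (intelectin 1, a lectin of microbial sugars) read 51.4, 58.9 and 51.5 against 29.8, 36 and 25.6 (limma adjusted p = 0.472). WFDC2, a secreted relative of SLPI, had a change of 0.43 (SE 0.16, limma adjusted p = 0.669). ANG (angiogenin, a secreted ribonuclease) read 575.5, 584.5 and 529.4 against 796.9, 672.3 and 912 (limma adjusted p = 0.653), so that all treated arrays were below all control arrays. LYPD8 and REG3G, named after their values were seen, complete the 5 genes, and the mean signal of each was under 42 in both groups. REG4 read 13659.3, 14953.2 and 15552.7 against 20935.9, 9643.7 and 22074.8, and PLA2G2A, a secreted phospholipase, read 85.5, 55.3 and 124.1 against 10.1, 66.4 and 92.8. S100A12, the third calgranulin, read 70.9, 53.2 and 81.6 against 46.4, 56.1 and 49.7. The groups of all 3 overlap.

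Among 26 other protease inhibitors (median change 0.12), an unadjusted p under 0.05 was reached by 3 upward and 2 downward. SERPINA3, an inhibitor of cathepsin G, read 290.9, 324.9 and 415.5 on treated and 89.2, 145.6 and 51.2 on control arrays, a change of 1.95 (SE 0.41, limma adjusted p = 0.445). CSTA, a cysteine protease inhibitor, read 75.7, 88.5 and 90.4 against 27.1, 50 and 26.9 (1.32, SE 0.29, limma adjusted p = 0.455). SERPINE2 had a change of 0.53 (SE 0.18, limma adjusted p = 0.645). The lower ones, named after their values were seen, were SPINK1, a trypsin inhibitor that read 14225.2, 14976 and 14733.3 against 18236.7, 21460.9 and 18251.2, and WFDC3, under background on all arrays. SERPINA1, the main plasma inhibitor of neutrophil elastase, read 26145.8, 23320.9 and 27194.4 against 24915.3, 21745.5 and 23260.6. Its groups overlap, as did those of SLPI.

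Of 23 other oxidant and nitric oxide enzymes (median change 0.072), an unadjusted p under 0.05 was reached by 3 upward and 1 downward. DUOXA2, the maturation factor that DUOX2 needs, read 18.3, 58.2 and 33.2 on treated and 19.7, 9.8 and 12.1 on control arrays (limma adjusted p = 0.683). It was above background on 2 treated and 0 control arrays, and treated replicate 1 lay below control replicate 1, so the groups overlap. DUOX1, the neighbouring oxidase, read 26.6, 66 and 60.6 against 36.8, 43.7 and 21.5. DUOXA1 has no probe set of a single symbol and was not analysed here. NOX1, an oxidase of colon epithelium, read 1445.2, 1246.7 and 1275.9 against 901.9, 839.4 and 756.2 (0.67, SE 0.15, limma adjusted p = 0.482), with no overlap. NOS3, the endothelial nitric oxide synthase, had a change of 0.53 (SE 0.19, limma adjusted p = 0.666), and of 0.24 over all its probe sets. CYBB, the phagocyte oxidase subunit, read 12.1, 14.3 and 33.7 against 64.2, 43.8 and 37.7 (limma adjusted p = 0.625), and its change of -1.34 became 0.10 when all its probe sets were averaged.

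Around PIGR, 18 genes of mucosal IgA and the mucus layer had a median change of 0.16, and an unadjusted p under 0.05 was reached by 1 upward and 1 downward. The higher one was TFF1, a trefoil peptide of mucus, with 603.3, 464.3 and 531.5 against 284.6, 382.8 and 333.5 (0.68, SE 0.19, limma adjusted p = 0.576). The lower one was TNFSF13B (BAFF), with 53.3, 44.2 and 51.5 against 104.2, 157.9 and 86.8 (-1.17, SE 0.26, limma adjusted p = 0.472), and its change was -0.52 over all its probe sets. FCGRT, the IgG carrier, read 2102.5, 1911 and 2117.3 against 2394.8, 2429.6 and 2782.4, a change of -0.31 in a gene whose groups did not overlap. JCHAIN, which joins the IgA pair that PIGR carries and is made by plasma cells, reached at most 27.4 on any array and was under background in both groups by its mean. The treated arrays were thus higher for PIGR by 1 of its 2 probe sets and lower for FCGRT (limma adjusted p = 0.739). JCHAIN was dim in both groups.

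Of 18 receptors and partners of the secreted proteins, 0 were called in either direction at an unadjusted p under 0.05. AGER, a receptor of S100 proteins, read 109.6, 101.9 and 130 against 149.7, 136.8 and 196, a change of -0.49 that was 0.035 over all its probe sets. TLR4, another receptor of calprotectin, read 186.1, 179.8 and 171 against 215.3, 283.3 and 109.8. MMP9, which LCN2 binds, read 181.5, 88.5 and 179 against 77.5, 66.3 and 120.7. The groups of TLR4 and MMP9 overlap.

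Of the inducers and controllers of defense genes, 6 of 39 (15.4%) reached an unadjusted p under 0.05, all upward, beside 5.33% of all genes upward. By separation, 11 of 39 were above on every array, beside 9.92% of all genes. The median change was 0.090. After median centring 4 of 39 reached that p upward, beside 2.98% of all genes upward in that setting. Without treated replicate 1 there were 3 upward and 1 downward, with no share of all genes given. The 6 on the signals as deposited were RELB, NFKB2, NFKBIA, TNF, IL1B and IFNGR1. RELB, an NF-κB subunit, read 701.8, 642.4 and 736.2 on treated and 308.4, 251.8 and 448.2 on control arrays (1.08, SE 0.25, limma adjusted p = 0.485). NFKB2, named after its values were seen, read 830, 747.3 and 776.2 against 546.8, 476.1 and 590.2 (0.55, SE 0.15, limma adjusted p = 0.576), and had a change of 0.019 over all its probe sets. NFKBIA, the inhibitor that NF-κB itself induces, read 4275.6, 3566.6 and 3938.6 against 2476.3, 1709.1 and 2574.9 (0.82, SE 0.22, limma adjusted p = 0.549), and had a change of -0.19 over all its probe sets. These 3 genes separated by the probe set used. Other NF-κB subunits, also named after their values were seen, did not reach an unadjusted p under 0.05, with changes of 0.23 for NFKB1, 0.25 for REL and 0.054 for RELA, the last with overlapping groups.

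TNF, a cytokine that activates NF-κB, read 75.7, 75.6 and 73.1 on treated and 31.1, 21.9 and 2.3 on control arrays (2.50, SE 0.89, limma adjusted p = 0.653). The change was 1.48 without control replicate 3, and control signals were above background on 1 of 3 arrays. IL1B read 80, 85.5 and 110.6 against 46, 58.6 and 56.7, and the interferon receptor gene IFNGR1 read 3416.1, 3330.4 and 3442.7 against 2438.2, 2684.2 and 2506.8, both named after their values were seen. NFKBIZ, a coactivator needed for LCN2 induction, did not separate, with 4431, 5732.4 and 5230.3 against 5276.1, 5033 and 4931. Of the C/EBP factors, CEBPB overlapped (10710.9, 9778.5 and 11302.9 against 8496.3, 10216.2 and 7987.7). CEBPD read 1054.8, 1141.7 and 934.4 against 872.6, 910.3 and 830.4, separate groups with a change of 0.26 (SE 0.15).

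**Figure D3:**
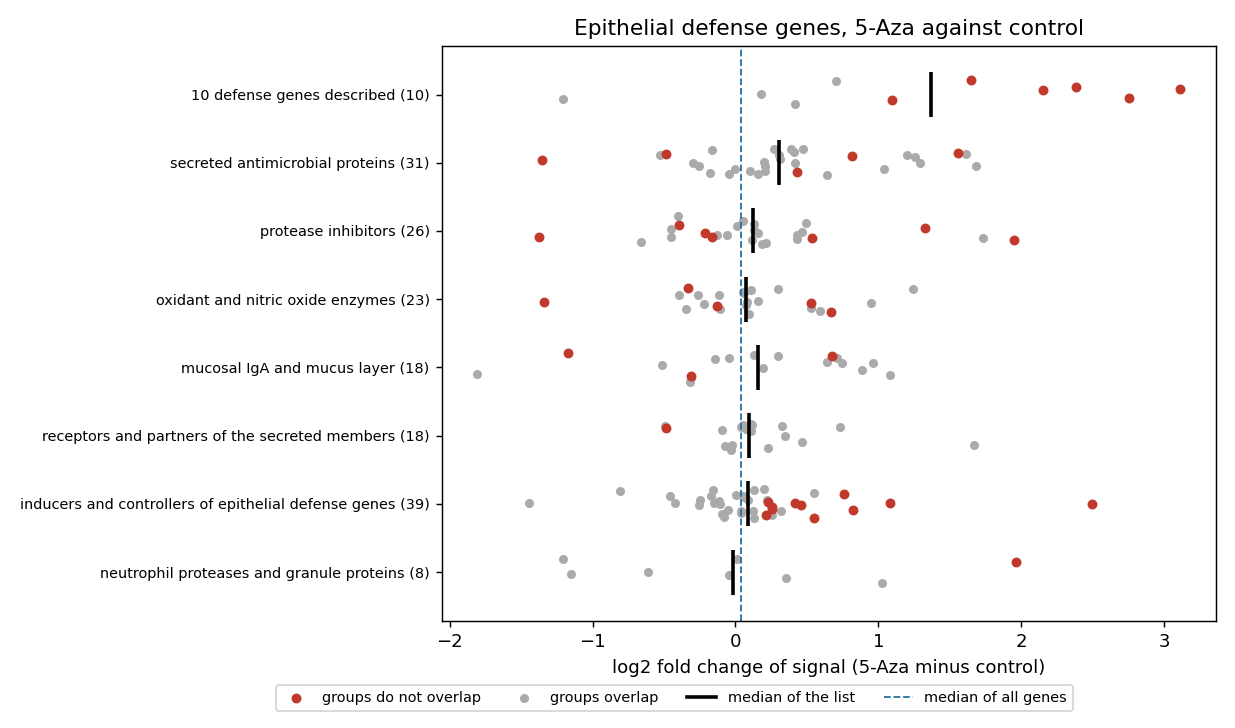
Log2 change of the 10 genes described and of the other genes in the 7 lists, 1 point per gene, treated minus control. Red points are genes whose groups do not overlap, black bars are list medians and the dashed line is the median of all genes, 0.038. The list medians lie between -0.020 and 0.30. The 39 inducers have 11 red points, all to the right of 0, beside 9.92% of all genes that separated upward.

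Calprotectin, LCN2 and elafin's targets are also products of neutrophils, so markers of other cells were read on the same arrays. The 8 neutrophil proteases and granule proteins had a mean under 42 in both groups, and the highest signal of any of them on any array was 64.4. ELANE, the elastase that PI3 and SLPI inhibit, read 6.2, 2.6 and 7.7 against 9.1, 2.1 and 24.9. Of 11 white blood cell markers, 6 were under 42 in both groups, but their summed signal was 805 to 981 on treated and 420 to 654 on control arrays, the same direction as in the 6 genes that separated. PTPRC (CD45), the defining marker of white blood cells, was under 42 on every array. The markers with the highest signals were ITGAM, with 262.5, 316.4 and 345.2 against 220.6, 93.3 and 249.2, and CD79A, with 301.4, 155.4 and 228.3 against 116.2, 164.3 and 139.3. The groups of ITGAM do not overlap and those of CD79A do. The 10 stromal and endothelial markers summed to 950 to 1053 on treated and 664 to 839 on control arrays, led by COL1A1 and ACTA2, whose groups overlap. VWF, an endothelial marker named after its values were seen, read 24.5, 68.9 and 72.2 against 11.2, 20.4 and 7.7, with no overlap (limma adjusted p = 0.579). The part of these signals in the results was not tested. Of 12 colon epithelial markers, 10 had a mean over 42 in at least 1 group, with the general epithelial markers KRT18 between 31097 and 43762 and EPCAM between 19976 and 27198. The intestinal markers CDX1 and CDH17 were under 42 by their means in both groups, and CDX2 had means of 42.7 in treated and 75.8 in control cells. These markers show an epithelial sample and do not identify the line.

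The 7 genes with a mean signal over 42 in at least 1 group were compared with 14326 other genes that passed the same filter. For each of the 7, the most similar pattern over the 6 arrays was sought, by the root mean square (RMS) difference of mean-centred log2 signals. The chemokine CXCL1 and the ubiquitin hydrolase UCHL1 were nearest to PI3, with RMS differences of 0.190 and 0.174. CXCL1 read 874, 914.4 and 1185.5 on treated and 104.1, 72.2 and 111.7 on control arrays. UCHL1 read 73.9, 116.1 and 121.1 against 8.6, 8.8 and 14.7. Nearest to LCN2 were FAIM2 (0.175) and KRTAP4-8 (0.179), both with control replicate 2 as the highest control array, as in LCN2. Nearest to DMBT1 were GPR62 (0.178) and PSD (0.248), which share its low treated replicate 2. RAET1E (0.194) and FOXI1 (0.223) were nearest to PIGR, and SCG2 (0.215) and CLDN10 (0.225) to DUOX2. Control arrays read 5.4, 3.4 and 12.7 for RAET1E, 3, 30.3 and 9.6 for SCG2, 10.4, 17 and 27 for GPR62, and 8.4, 13.7 and 14.2 for PSD. These signals, like the control signals of UCHL1, were under the background of their own arrays, so the likenesses rest partly on values under background. SLPI was nearest to TOMM34 (0.0403) and BRI3 (0.0427), whose groups also overlap. Nearest to NOS2 were LINC01144 (0.278) and ADTRP (0.342). The RMS difference depends on the spread of the gene itself, whose own RMS ranged from 0.161 for SLPI to 1.57 for PI3, so the values do not rank the genes. These likenesses are a description over 6 arrays.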

How the data were processed

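The 6 HGU133 Plus2.0 microarrays, 3 of 5-Aza-treated and 3 of control HT-29 cells, were grouped by the sample labels. The dose and time are from the study's methods. The deposited table holds linear intensity values that the authors made with the affy package (version not given), 1 signal per probe set and array. The arrays share a trimmed mean of 500, and no other scaling was applied. After 62 control probe sets were left out, log2(signal + 1) of 54613 probe sets was fitted with limma 3.58.1 in R 4.3.3, with group as the single factor and Benjamini-Hochberg adjustment. The script was tested on simulated data.

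Gene symbols came from the platform annotation (41097 probe sets with 1 symbol, 1801 with several, 11777 with none). Each gene was represented by its brightest probe set of a single symbol, with _x_at sets used only where there was no other. The genes described, the lists and the tests were chosen with earlier results of these data known. The named genes were every gene described, a set of always named genes, the 2 brightest genes per marker list, and the 2 most alike patterns per gene. To these were added up to 3 genes per list with the largest change among those whose groups did not overlap. Their mean had to be over 42 in at least 1 group, so a gene could pass through the group where it was high. Exceptions are named beside their values.

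The number of arrays limits the precision. Arrays of the same replicate number did not deviate together (correlations of -0.012, 0.0021 and 0.0097), and no source pairs them. No arrays were duplicates. Alternatives were quantile normalization, median centring, adding 16, a filter on dim probe sets, a replicate block, leaving out each array, trend and robust variance, a SAM-type statistic, control probe sets kept, the mean of a gene's probe sets and the ratio of mean signals. Promoter windows and positions are from RefSeq tables on GRCh38.p14.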

Additional observations from a re-analysis of the deposited data

How the results depend on the processing

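No setting turned the direction of the 7 probe sets whose groups did not overlap. For most settings this was fixed in advance, so little is read from it. Where groups do not overlap, leaving out an array, adding 16 or taking the ratio of means cannot turn the sign. The replicate block, the variance options, the SAM-type statistic, the signal filter and keeping control probe sets leave the change as it was. Only quantile normalization and median centring could have turned it. Of 188 values of the 13 probe sets over all settings, 179 kept their sign and lay within 1 residual SD of the main value. Another 8 reversed, and 1 moved further (S100A8 202917_s_at, 1.40 with 16 added). Many of the 188 come from settings that leave the change as it was. The limit is wide for noisy probe sets, since PIGR 204213_at counts as within it from 1.54 down to 0.17. S100A8 214370_at, under background, was -0.0402 after quantile normalization, -0.0895 after median centring, -0.027 as a ratio of mean signals, and -0.23 to 0.54 with 1 array left out. SLPI was -0.0061 after median centring, and DEFB1 was -0.044 to 0.85 with 1 array left out. The median over the 10 genes was 1.13 to 1.74 over all settings. Median centring left 5 genes above on every array, since LCN2 then overlapped. With 1 array left out, 6 to 8 genes were above and 0 to 1 below on every array, the latter being NOS2 without control replicate 3.

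Among the 163 related genes, median centring gave 9 higher and 10 lower, beside 2.98% and 6.72% of all genes in that setting. With the replicate block, 3 were lower and 11 higher. Leaving out 1 array gave 8 to 17 higher and 3 to 9 lower. CYBB was 0.10, AGER 0.035 and NFKBIA -0.19 by the mean of all probe sets, which also gave 0.019 for NFKB2, -0.52 for TNFSF13B and 0.24 for NOS3. The causes were not tested.

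Only probe sets above the median signal gave 10 related genes higher, 9 probe sets with an adjusted p under 0.05, and 3 of the 4 described genes left above on every array, with fewer genes tested. Trend and robust variance called 23 probe sets at an adjusted p under 0.05, and leaving out any 1 array called 0. The SAM-type statistic called 0, but it could not have called any. Its 20 relabellings include the true grouping and its mirror image, which keeps every adjusted p above 0.05. Limma without these changes called 0, while an unadjusted p under 0.05 was reached by 1054 genes upward and 373 downward. Of probe sets at an unadjusted p under 0.025, the part with a higher treated signal was 73.8% as deposited, 54.5% after quantile normalization and 39.0% after median centring. Signals near background limit S100A8, S100A9, DEFB1, NOS2 and the control level of DUOX2.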
